A study of Arabidopsis thaliana with 4 samples.

Results

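The genes described here belong to families that build, loosen or remodel the plant cell wall, and were chosen by name. A gene was a member if its single-gene probe carried a symbol or RefSeq synonym, with or without the prefix AT, of the type EXPA, EXPB, EXLA, XTH, CESA, CSLA to CSLG, PME, AGP, FLA, EXT or PRP followed by a number. EXPA7 and EXPA18 were left out by the same rule. It found 33 genes, each with 1 probe, among 9253 genes that could be named. They were 7 alpha-expansins (EXPA), 3 beta-expansins (EXPB), 2 expansin-like A genes (EXLA), 9 xyloglucan endotransglucosylase/hydrolases (XTH), 9 cellulose synthase-like genes (CSL), 2 pectin methylesterases (PME) and PRP39. These are parts of their families. By the same names RefSeq holds 24 EXPA, 6 EXPB, 3 EXLA, 33 XTH, 32 CSL and 15 PME genes. Family medians below are over the measured genes only. No cellulose synthase (CESA), arabinogalactan protein (AGP), fasciclin-like protein (FLA) or extensin (EXT) had a named probe, so these families were not analysed here. PRP39 (AT1G04080) is a pre-mRNA processing gene that shares its letters with the proline-rich proteins, so 32 of the 33 members are wall genes and none is a structural wall protein.

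Roots of nai1-1, which the submitters describe as a mutant lacking ER bodies, were compared with roots of the wild type Col-0. ER bodies are compartments of the endoplasmic reticulum that hold beta-glucosidases in Brassicaceae. Plants of both genotypes shared a plate and were 20 days old, grown untreated in continuous light at 22 °C on MS plates (sucrose 1%, gellan gum 0.5%), and each RNA pool came from 3 plants of a genotype. Both genotypes were hybridised together on 4 two-colour arrays, and the dyes were swapped: arrays 1 and 4 had Cy3 on nai1-1, whereas arrays 2 and 3 had Cy5 on it. The labels name 1 mutant line, do not describe its lesion, and do not say whether the 4 arrays carry separate pools, so the p-values measure the spread between arrays, which may be technical.

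The growing root cell is held by a wall in which cellulose fibres lie in xyloglucan and pectin. Expansins loosen the contacts between these polymers without cutting them, while XTH enzymes cut xyloglucan chains and join them to others. CSL enzymes make the backbones of xyloglucan and related polysaccharides, and pectin methylesterases remove methyl groups from pectin, which changes how stiff it is.

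Each value is a log2 ratio with nai1-1 above Col-0, so less transcript in the mutant gives a negative value. The standard error (SE) is that of a limma fit with a genotype and a dye term over all 22575 probes (n = 4 arrays), and adjusted p-values are Benjamini-Hochberg values from that fit unless another is named. The sign assumes that the software wrote Cy5 over Cy3, as is its habit. The submitters do not state this, and if it were the reverse every sign below would turn. NAI1, the mutated gene, was at -0.77, -1.21, -0.21 and -0.60 on arrays 1 to 4. A ratio carries no level, so the root identity of the RNA could not be checked against markers, and fewer cells of a type cannot be told apart from less RNA per cell. Array medians over all probes were 0, 0, -0.00 and 0, and the unscaled median absolute deviations were 0.262, 0.219, 0.147 and 0.125, so arrays 1 and 2 were wider than arrays 3 and 4.

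None of the 33 members passed the threshold of 0.05 in the fit over all probes, where 112 probes passed, 0.496% of those tested. The smallest adjusted p of a member was 0.0664, for EXLA2. At an unadjusted p under 0.05 there were 11 members (33.3%) against 12.9% of all probes. Of these 11, 6 were lower, against 7.31% of probes, and 5 were higher, against 5.59%. The members are all named probes, and these shares were not computed over named probes alone. When 1016 probes were left out because at least 1 of their 4 deposited values was exactly 0, 7 members passed (21.2%) against 3.61% of the 21559 probes tested. Of these, 4 fell (EXLA3, CSLC04, EXLA2 and CSLD2), against 2.99% of probes, and 3 rose (EXPA15, EXPB3 and EXPA9), against 0.617% of probes. No member held an exact 0, so the ratios of the members are the same in both fits. The number of probes adjusted over and the pooled spread differ: the prior degrees of freedom that limma estimated were 2.27 with the probes of exact 0 and 4.86 without them.

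Across the members, 13 had the same sign on 4 arrays (39.4%), against 25% of the probes with 1 named gene. They were 8 lower members, against 12.2% of those probes, and 5 higher ones, against 12.9%. A mean change of at least 2-fold was seen in 4 members (12.1%), against 1.75% of those probes. These were EXLA3, CSLC04 and EXLA2, which were lower, and EXPA15, which was higher. Most members lay near 0: 20 of 33 (60.6%) had a mean within 0.2 log2 units of 0, against 70% of named probes. The median over all members was 0.02, as it was over all named genes.

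**Figure D1:**
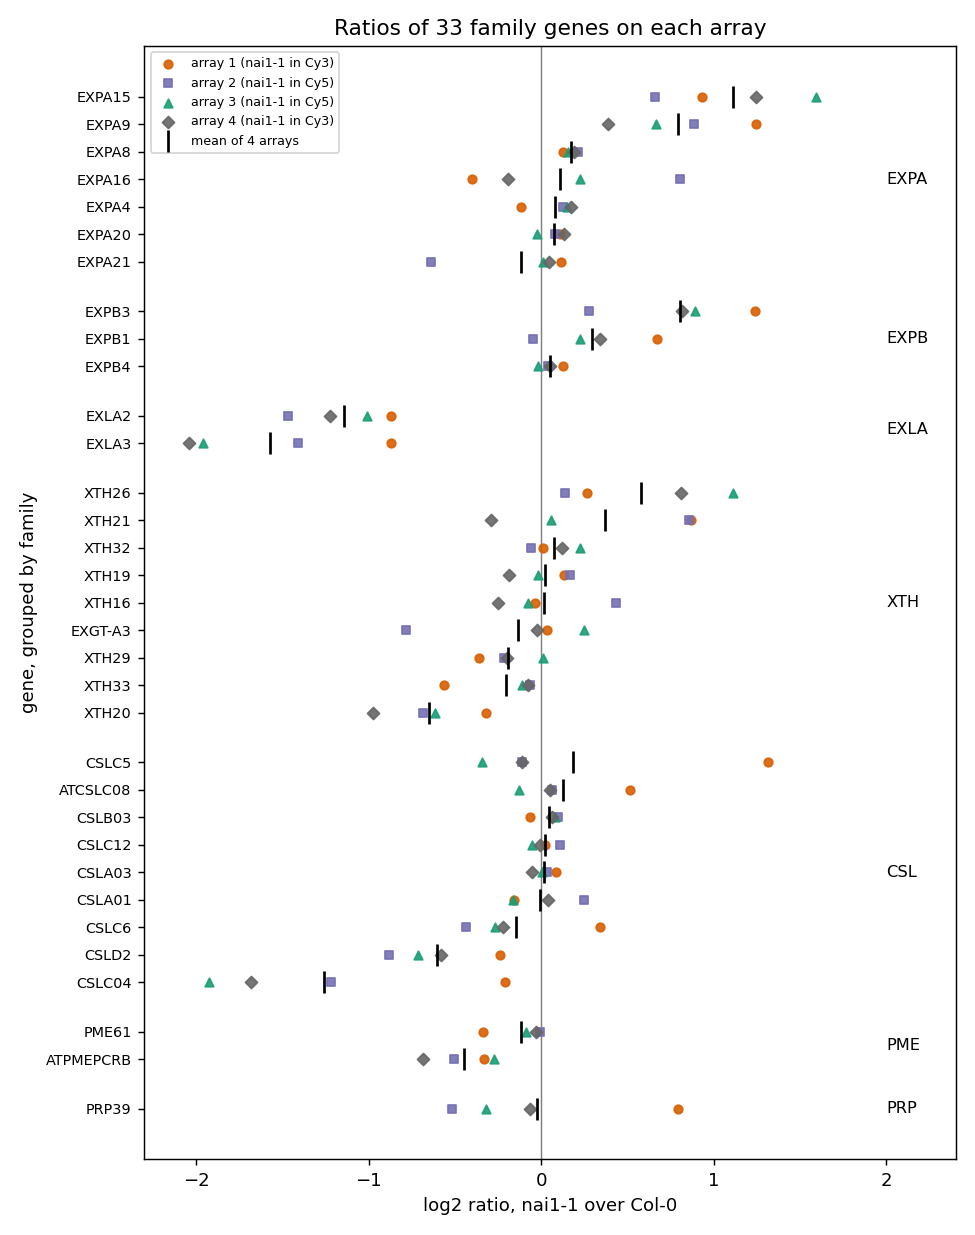
Log2 ratio of nai1-1 over Col-0 (horizontal axis) for each of the 33 members (rows, grouped by family), with 1 symbol per array and a black bar at the mean of 4 arrays. Both EXLA genes and CSLC04 lie left of 0 on 4 arrays, EXPA15, EXPA9 and EXPB3 lie right of 0 on 4 arrays, and most other members straddle 0.

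The expansin-like A genes were the family with the largest shift. EXLA proteins share the domains of expansins, but what they do in the wall is less well characterised. EXLA3 (AT3G45960) was at -0.87, -1.41, -1.96 and -2.04 on arrays 1 to 4. It was below Col-0 on each array, and least so on array 1. Its mean of -1.57 ± 0.23 (SE, n = 4) corresponds to a 2.97-fold lower transcript level (limma adjusted p = 0.102, and 0.0105 without probes of exact 0).

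EXLA2 (AT4G38400) was at -0.87, -1.46, -1.01 and -1.23, so its arrays were closer together than those of EXLA3. Its mean was -1.14 ± 0.12 (SE, n = 4), 2.21-fold lower (limma adjusted p = 0.0664, and 0.00688 without probes of exact 0). EXLA2 also passed with a robust prior (adjusted p = 0.016, 2.35% of probes called) and with no dye term (adjusted p = 0.0279, 1.75% of probes called), and with the robust prior EXLA3 and EXPA15 passed too (adjusted p = 0.031 and 0.0403). The third gene of the family, EXLA1 (AT3G45970), is the neighbour of EXLA3 in the gene table and was not analysed here. Probe sequences were not used here, so signal from such relatives was not assessed.

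The alpha-expansins, which loosen walls at acid pH, included the highest member of all. EXPA15 (AT2G03090) was at 0.93, 0.66, 1.59 and 1.25. All 4 arrays were above 0, arrays 3 and 4 more so than arrays 1 and 2. The mean of 1.11 ± 0.18 (SE, n = 4) is a 2.16-fold higher level (limma adjusted p = 0.123, and 0.0187 without probes of exact 0). Of the named probes, 99.9% had a lower mean than EXPA15.

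EXPA9 (AT5G02260) was at 1.24, 0.88, 0.66 and 0.39, again above 0 throughout, but with the higher values on arrays 1 and 2. Its mean of 0.79 ± 0.17 (SE, n = 4) is 1.73-fold (limma adjusted p = 0.179, and 0.0458 without probes of exact 0). EXPA8 (AT2G40610) was above 0 on 4 arrays as well but small, at 0.13, 0.21, 0.15 and 0.19, and its mean of 0.17 ± 0.08 did not pass (95% interval -0.04 to 0.38).

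The other alpha-expansins did not move together. EXPA4 and EXPA20 had means of 0.08 and 0.07. EXPA16 was at -0.40, 0.80, 0.22 and -0.19. Its arrays with nai1-1 in Cy5 were positive and those with nai1-1 in Cy3 negative, and its dye term of 0.40 (Cy5 over Cy3) was the only one among the members at an unadjusted limma p under 0.05, against 3.29% of named probes. The adjusted p of the dye term was 0.803 or higher for every member. EXPA21 was near 0 on 3 arrays and at -0.64 on array 2. No member of this family had a mean below 0 except EXPA21, at -0.12 ± 0.13.

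Among the beta-expansins, EXPB3 (AT4G28250) was at 1.24, 0.28, 0.89 and 0.81. All arrays were above 0, with array 2 the lowest. Its mean of 0.80 ± 0.15 (SE, n = 4) is 1.75-fold (limma adjusted p = 0.143, and 0.0327 without probes of exact 0). EXPB1 (AT2G20750) was at 0.67, -0.05, 0.23 and 0.34. As for EXPB3, array 1 was the highest and array 2 the lowest, with a mean of 0.30 ± 0.11 that did not pass in either fit (limma adjusted p = 0.372 and 0.302). EXPB4 was at 0.05 ± 0.08, with values from -0.02 to 0.12.

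Of the 10 expansins in both families, 9 had a mean above 0, while both EXLA genes had a mean below 0. Of the named probes, 45.7% had a mean below 0.003. Most of the 10 expansins were near 0: 6 had a mean within 0.2 log2 units of it, against 70% of named probes. Array by array, the EXLA median was -0.87, -1.44, -1.48 and -1.63, and the median over the 10 expansins was 0.13, 0.17, 0.19 and 0.18. The EXLA median was therefore the lower on 4 of 4 arrays. No test was made on such medians, because the members were chosen by name and a family is not a set of replicates.

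**Figure D2:**
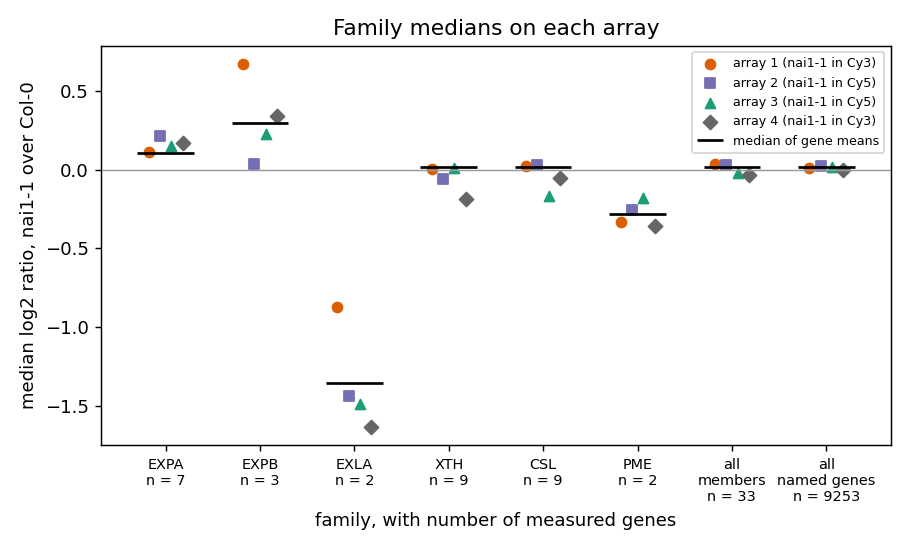
Median log2 ratio of nai1-1 over Col-0 on each array (symbols) and median of the gene means (black lines) for each family with at least 2 measured genes, all 33 members and all 9253 named genes. EXLA stands at -0.87 to -1.63 on the 4 arrays, EXPB and EXPA lie above 0, and XTH and CSL lie near the median of all named genes.

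The XTH family had members on both sides of 0, with a median of 0.02. XTH20 (AT5G48070), which has been tied to tissue reunion in cut stems, was the lowest, at -0.32, -0.68, -0.62 and -0.97. It was below 0 on each array, with a mean of -0.65 ± 0.13 (SE, n = 4) or 1.57-fold lower, and did not pass in either fit (limma adjusted p = 0.173 and 0.0545). XTH19 (AT4G30290), tied to the same process, was at 0.02 ± 0.10, with values from -0.19 to 0.16, and its sign turned to -0.02 when arrays were scaled to one spread.

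XTH26 (AT4G28850) was the highest of the family, at 0.27, 0.14, 1.11 and 0.81. It was above 0 on 4 arrays. With arrays paired by their number, the first pair (1 and 2) averaged 0.20 and the second pair (3 and 4) 0.96. The overall mean of 0.58 ± 0.20 did not pass (limma adjusted p = 0.367, and 0.187 without probes of exact 0). XTH21 (AT2G18800), which has a role in primary root growth, showed the opposite split, at 0.87, 0.85, 0.06 and -0.29. Its mean of 0.37 ± 0.25 comes from the first pair (0.86) and not from the second (-0.12), and it did not pass (limma adjusted p = 0.609).

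XTH33 was below 0 on 4 arrays, at -0.56, -0.07, -0.11 and -0.07, with a mean of -0.20 ± 0.11. XTH29 was at -0.19 ± 0.09 and was above 0 only on array 3, at 0.01. EXGT-A3, also called XTH27 and tied to vein development in leaves, was at -0.13 ± 0.19 with -0.78 on array 2 and values between -0.03 and 0.25 on the others. XTH32 was at 0.07 and XTH16 at 0.02, and the latter turned to -0.03 when arrays were scaled to one spread.

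Within the CSL family the xyloglucan synthases differed from each other. CSLC enzymes make the glucan backbone of xyloglucan in the Golgi apparatus, and 5 of them were measured. CSLC04 (AT3G28180) was at -0.21, -1.22, -1.93 and -1.68. It was below Col-0 on each array, but array 1 was close to 0 while the other 3 were more than 2-fold lower. Its mean of -1.26 ± 0.29 (SE, n = 4) is 2.39-fold lower (limma adjusted p = 0.204, and 0.0423 without probes of exact 0).

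The other 4 CSLC genes had means between -0.15 and 0.19 and did not pass in either fit. CSLC5 (AT4G31590) was at 1.32 on array 1 and between -0.35 and -0.11 on the others. CSLC6 was at 0.34 on array 1 and between -0.44 and -0.22 on the others, and ATCSLC08 at 0.51 against -0.13 to 0.06. CSLC12 lay between -0.05 and 0.11 on all arrays. Array 1 thus gave the highest of the 4 values for CSLC04, CSLC5, CSLC6 and ATCSLC08, and for 6 of the 9 CSL genes, while arrays 3 and 4 gave the highest value for 0 of the 9. Over all members array 1 gave the highest value for 16 of 33. The same share over all probes was not computed, and array 1 was the widest array over all probes. These counts can therefore not be read as a trait of the members.

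CSLD2 (AT5G16910), an enzyme needed for normal tip growth of root hairs, was at -0.24, -0.88, -0.71 and -0.58. Every array was below 0 and array 1 was again nearest to it. The mean was -0.60 ± 0.10 (SE, n = 4), 1.52-fold lower (limma adjusted p = 0.121, and 0.0397 without probes of exact 0). The CSLA enzymes, which make mannan backbones, lay near 0, with CSLA01 at -0.01 and CSLA03 at 0.02 (95% interval -0.20 to 0.23). CSLB03 was at 0.04 ± 0.08.

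Both measured pectin methylesterases, of 15 PME genes in RefSeq, were below 0 on 4 arrays. ATPMEPCRB (AT4G02330, also called PME41) was at -0.33, -0.51, -0.27 and -0.69, with little difference between the pairs of arrays. Its mean of -0.45 ± 0.10 (SE, n = 4) is 1.37-fold lower and did not pass in either fit (limma adjusted p = 0.21 and 0.114). PME61 (AT3G59010) was at -0.34 on array 1 and between -0.09 and -0.01 on the others, with a mean of -0.12 ± 0.09. PRP39, the splicing gene that entered through its name, was at 0.79, -0.51, -0.32 and -0.06, and its mean of -0.03 ± 0.17 was made of values that disagreed in sign.

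**Figure D3:**
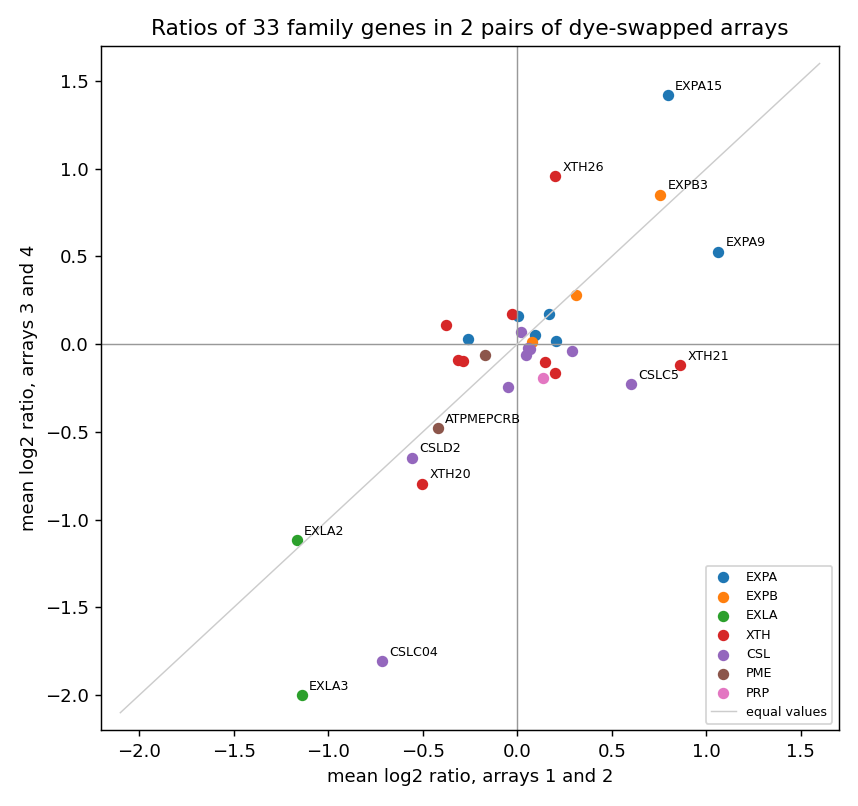
Mean log2 ratio on arrays 1 and 2 (horizontal axis) and on arrays 3 and 4 (vertical axis) for each of the 33 members, coloured by family, with names where either mean is at least 0.4 from 0 and a line of equal values. The pairs were set by array number. EXLA2, EXPB3, CSLD2 and ATPMEPCRB lie near the line, EXLA3, CSLC04 and XTH26 have the larger change on arrays 3 and 4, and XTH21 and CSLC5 have a pair mean above 0 for arrays 1 and 2 and below 0 for arrays 3 and 4, which for CSLC5 rests on array 1 (1.32).

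Each of these pairs of arrays holds both dye orientations, and the members that passed differed in how evenly the pairs carried them. The pairs were set here by array number. Arrays 1 and 3 against arrays 2 and 4 would also hold both orientations, and that grouping was not tried. How even a gene looks depends on the grouping: EXPB3 was at 1.24 and 0.89 on arrays 1 and 3, and at 0.28 and 0.81 on arrays 2 and 4. EXLA2 averaged -1.17 over the first pair and -1.12 over the second, EXPB3 had 0.76 and 0.85, and CSLD2 -0.56 and -0.65. CSLC04 had -0.71 and -1.81, EXLA3 -1.14 and -2.00, and EXPA15 0.80 and 1.42. EXPA9 had 1.06 and 0.53, so its change was smaller in the second pair. Without probes of exact 0 and with each pair averaged as 1 replicate, EXLA2 alone passed (limma adjusted p = 0.0441), against 0.561% of probes.

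Most of the 7 calls made without probes of exact 0 were lost when array 2 or array 3 was also left out. Each fit without 1 array kept the dye term and had 1 residual degree of freedom. With array 2 or 3 left out, a gene's own spread came only from arrays 1 and 4. With array 1 or 4 left out, it came only from arrays 2 and 3. A lost call therefore does not show that a ratio rests on the array left out. Without array 2 the single member that passed was EXPA15 (0.951% of probes called), and without array 3 it was EXLA2 (1.03% of probes). Without array 1 there were 6, which included XTH20 and lacked EXPB3 and EXPA9 (3.24% of probes), and without array 4 there were 6, which lacked CSLD2 (4.36% of probes).

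**Figure D4:**
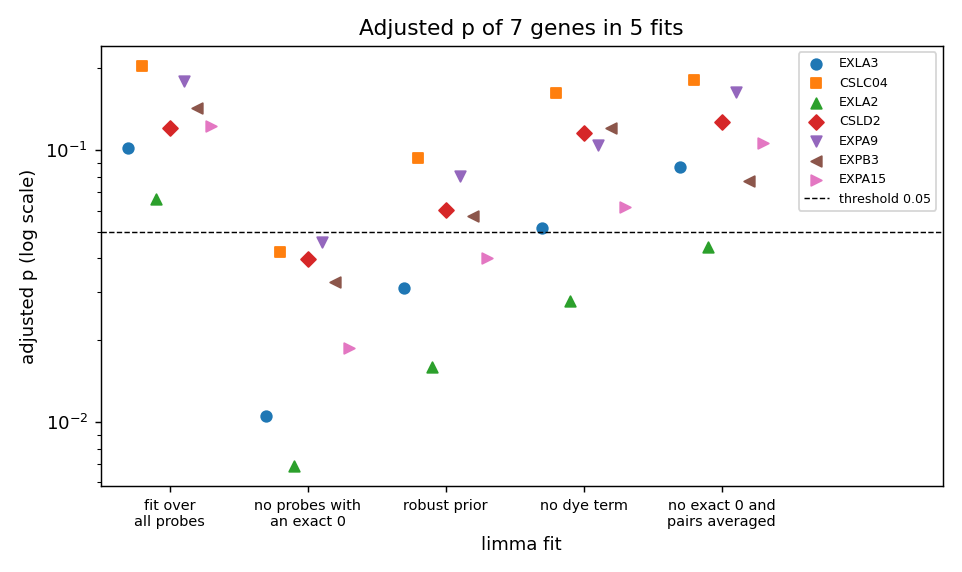
Benjamini-Hochberg adjusted p (log scale) of the 7 members that passed without probes of exact 0, in 5 limma fits, with the threshold of 0.05 as a dashed line. All 7 lie above the line in the fit over all probes and below it without probes of exact 0, and EXLA2 is below it in 4 of the 5 fits.

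Other wall genes outside these families were taken from a list of family names, of which 48 genes had a named probe. None passed over all probes (0.496% of probes called), and without probes of exact 0 there were 2 that fell, against 2.99% of probes, and 2 that rose, against 0.617%. All 4 of these calls were lost when pairs of arrays were also averaged (limma adjusted p from 0.089 to 0.159). One of the 48, GH9B11, held exact 0 values and was not tested in the latter fit. The list's median was -0.00. GH9C2 (AT1G64390) and GH9C1 (AT1G48930), cellulases of family GH9, were the 2 that rose, with means of 0.85 ± 0.17 and 0.61 ± 0.11 (limma adjusted p without probes of exact 0 = 0.0376 and 0.043). GH9C2 was at 1.65, 0.57, 0.43 and 0.76, so array 1 was the highest, while GH9C1 lay between 0.36 and 0.78.

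The 2 that fell were the class III peroxidase AT5G64120 (PRX71) and THE1 (AT5G54380), a receptor kinase that senses the state of the wall. AT5G64120 was at -0.65, -0.89, -0.65 and -0.71, with a mean of -0.73 ± 0.09. THE1 was at -0.17, -0.90, -0.88 and -0.68, with a mean of -0.66 ± 0.12, and FER, a related receptor kinase, was at -0.06, -0.60, -0.83 and -0.50 without passing (limma adjusted p without probes of exact 0 = 0.0949). Array 1 was the nearest to 0 for both kinases. The 17 genes of wall acetylation (TBL) had a median of 0.03 and none passed in either fit.

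The root hair genes EXPA7 and EXPA18, left out of the members, are the 2 measured genes of 11 in a root hair marker list. Their median was 0.44, 0.23, 0.68 and 0.58 on arrays 1 to 4, above 0 throughout. None of 13 markers of xylem secondary walls had a named probe. For shoot tissue 5 of 20 photosynthesis genes were measured, with medians of 0.02, -0.48, -0.14 and 0.14. These were positive on the arrays with nai1-1 in Cy3 and negative on those with nai1-1 in Cy5. The dye terms of the 5 genes ran from -0.28 to -0.11 (Cy5 over Cy3), and none passed (limma adjusted p of 0.803 or higher). Whether cell type makeup has a part in the members' ratios was not tested.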

How the data were processed

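Per the labels' protocols, 5 µg of total RNA was labelled by linear amplification. The authors deposited a log10 ratio for each probe of each array, which Agilent Feature Extraction 7.1 had produced (per the submitters' processing notes). Its correction settings are not stated in the labels, and spot intensities and flags were not used here. Division by 0.301 gave log2 values, and the sign of arrays 1 and 4 was reversed. Nothing else was normalized, and precision is limited by the number of arrays. Probes were named through the platform annotation and a RefSeq table of assembly TAIR10.1: 9335 probes had 1 gene, of which 9317 matched the table, 40 had several and 13200 were not listed, so these are unnamed here. Of the members, 31 matched by current symbol and 2 by synonym. All probes were fitted with limma 3.58.1 in R 4.3.3 (genotype and dye terms, two-sided, Benjamini-Hochberg at 0.05). The fit was tested on simulated data. Every member is given with its value. The naming rule put first the members that passed with or without probes of exact 0, then the highest, the lowest and the smallest p of each family, and both members of small families. Members, lists and fits were chosen with earlier results of these data known. In the list of other wall genes, the genes named are those that passed, FER and GH9B11, the last 2 chosen after their values were seen. Alternatives were no probes of exact 0, no dye term, median centring, scaling to one spread, array weights, a robust prior, averaged pairs of arrays and leaving out each array.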

Additional observations from a re-analysis of the deposited data

Results flagged for a closer look

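Dixon's test on 4 arrays was applied to 40 values, the 33 members and 7 medians, and set 4 of them apart, where chance gives about 1 in 20, or 2. Array 1 stood apart in 3 and array 2 in 1. CSLC5 was at 1.32 on array 1 against -0.35 to -0.11 on the others, XTH33 at -0.56 on array 1 against -0.11 to -0.07, and EXPA4 at -0.12 on array 1 against 0.13 to 0.17. EXPA21 was at -0.64 on array 2 against 0.01 to 0.11. None of these 4 genes passed in the fits with 4 arrays, but a value set apart itself widens a gene's spread and makes passing harder. Array 1 was also the widest over all probes, and the part of that width in these values was not tested.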

How the results depend on the processing

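Over all probes 112 passed. There were 778 without probes of exact 0, 531 with a robust prior, 394 with no dye term, 121 with pairs averaged and no exact 0, and 0 with arrays scaled to one spread, with pairs averaged or without any single array (0 to 0). At an unadjusted p under 0.05 limma gave 3212 probes with scaled arrays and 2261 with averaged pairs. Of the members, 0 passed, against 4 lower and 3 higher without probes of exact 0, 2 lower and 1 higher with a robust prior, 1 lower with no dye term and 1 lower with pairs averaged and no exact 0. Leaving out 1 array as well as probes of exact 0, a choice made after seeing the data, gave 698, 205, 222 and 939 probes without arrays 1, 2, 3 and 4, with 0 to 5 lower members and 0 to 3 higher members. Counts did not move with median centring or with array weights. The median of all members ran from -0.018 to 0.0599 and that of EXPA from 0.068 to 0.186 when 1 array was left out. With members matched by current symbol alone, PME61 stands for its family at -0.12. Signs turned for 10 members with means within 0.19 of 0: with arrays scaled to one spread for XTH16 (-0.033) and XTH19 (-0.017), and with 1 array left out for CSLA01 (-0.11 to 0.094), CSLA03 (-0.018 to 0.052), CSLC12 (-0.022 to 0.0599), CSLC5 (-0.17 to 0.54), EXPA21 (-0.28 to 0.045), EXPA16 (-0.036 to 0.25), PRP39 (-0.24 to 0.19), EXGT-A3 (-0.39 to 0.13), XTH16 (-0.11 to 0.14) and XTH19 (-0.057 to 0.10). The other 23 kept their sign in these alternatives. The cause of these changes was not tested. Spot signal over background was not analysed here, so dim spots could not be told from bright ones.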
